A study of Mus musculus with 4 samples.

Results

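The cells described here were peritoneal macrophages that carried barcode suffix 3 or suffix 4 in a droplet single-cell experiment, and the libraries of both suffixes were compared gene by gene. A barcode was taken as a macrophage when it had at least 500 detected genes, at most 10% mitochondrial UMIs (unique molecular identifiers, each counting 1 captured transcript), at least 2 UMIs of Adgre1, and no UMI of Cd79a, Cd3d, Cd3e or Cd3g. Suffix 3 gave 4312 such cells and suffix 4 gave 5000, together 9312 of the 26811 barcodes in the matrix, and 15054 barcodes of all 4 suffixes met the rule. The cells were chosen by their UMIs of these marker genes and the pair of libraries was selected on its Apoe UMIs, so every difference inside these cells is a description of 2 libraries, with no replicate and no test. Intervals are 95% intervals for counting error only, exact Poisson for a level, exact conditional binomial for a ratio and Clopper-Pearson for a share. PCR duplicates were collapsed by the identifiers, but cells of 1 library are not replicates of a condition.

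The labels name 4 samples, 1 for each group, of F4/80-positive cells washed from the peritoneal cavity of mice aged 24 weeks and sorted as viable. One group was wild-type C57BL/6 on a normal diet and another was Apoe-/- on a normal diet, and both received buffer into the peritoneum in the same volume as the other groups. A further Apoe-/- group ate a diet of 21% fat and 0.15% cholesterol for 20 weeks from an age of 4 weeks and was given 200 µL of buffer at week 21. The last group was Apoe-/- with the same diet and 200 µL holding 3 mg of an antibody to collagen VI, a matrix protein. A normal diet was given again before the injection. For the Apoe-/- mice fed the high-fat diet, male sex and a C57BL/6 background are stated. The sources used here do not say how many mice a sample pooled. Nothing in the labels ties a suffix to a sample, so the libraries are called by suffix and no difference below can be assigned to a genotype, a diet or the antibody.

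Large peritoneal macrophages are long-lived resident cells that depend on the transcription factor Gata6, and many carry Timd4, a receptor for phosphatidylserine on dying cells. Small peritoneal macrophages come from blood monocytes and display more MHC class II, the molecules that present peptides to CD4 T cells. Macrophages also make apolipoprotein E, the Apoe product, which carries cholesterol out of the cell and lets lipoproteins bind their receptors. Class II genes share a promoter module whose Y box is bound by NF-Y, and they need the coactivator Ciita. Glucocorticoids act through a nuclear receptor that binds a palindrome in DNA and induces genes such as Fkbp5, Tsc22d3 and Per1.

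For the class II group and the glucocorticoid group, 3 promoters are shown because they hold a motif known from genes of such groups, which most list members lack in this window. They are the 250 bases before the RefSeq start site on GRCm38.p6, written in the direction of transcription. Capitals mark CTGATTGG, the Y box, in the first pair and the glucocorticoid receptor palindrome, GNACA and TGTNC with 3 bases between them, in the last. H2-Aa lies at chr17:34287824-34288073 on the minus strand, H2-Eb1 at chr17:34305617-34305866 on the plus strand, and Mt1, the gene of the metal-binding protein metallothionein 1, at chr8:94178839-94179088 on the plus strand.
H2-Aa: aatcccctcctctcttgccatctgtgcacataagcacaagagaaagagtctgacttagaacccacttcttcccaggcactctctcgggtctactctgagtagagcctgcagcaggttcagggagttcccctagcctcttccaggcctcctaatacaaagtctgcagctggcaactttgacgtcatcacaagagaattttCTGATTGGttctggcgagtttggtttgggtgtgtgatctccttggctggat
H2-Eb1: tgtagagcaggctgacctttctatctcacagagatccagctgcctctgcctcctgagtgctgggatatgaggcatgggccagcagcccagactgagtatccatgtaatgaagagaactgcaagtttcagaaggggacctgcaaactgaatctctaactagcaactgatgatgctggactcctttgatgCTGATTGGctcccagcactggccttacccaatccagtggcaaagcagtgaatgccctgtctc
Mt1: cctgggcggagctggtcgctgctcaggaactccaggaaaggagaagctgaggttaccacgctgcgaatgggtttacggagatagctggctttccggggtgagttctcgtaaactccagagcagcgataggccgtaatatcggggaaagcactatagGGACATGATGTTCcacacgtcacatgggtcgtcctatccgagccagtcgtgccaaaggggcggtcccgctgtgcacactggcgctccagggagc
The Y box ends 43 bases before the start site in H2-Aa and 54 bases before it in H2-Eb1, and the palindrome of Mt1 ends 81 bases before its start site. On either strand, CTGATTGG was found in 3.83% of the 32851 promoter windows of the same length in the table. Counted by gene, as the list members are, it was in 4.43% of 27025 genes. It was in 2 of the 5 class II list members tested here that have an entry, H2-Aa and H2-Eb1 (H2-DMa, H2-DMb1 and Ctss lack it). The palindrome was in 0.387% of all windows (0.44% of genes) and in 2 of 7 glucocorticoid list members with an entry, Mt1 and Sgk1. Neither of these passed 2-fold below, and Fkbp5, Tsc22d3, Per1, Klf9 and Dusp1 lack the palindrome. An interferon-type motif, GAAA and again GAAA with 2 bases between them, was in 2.98% of windows (3.46% of genes). It was in 1 of 5 type I interferon list members with an entry, Bst2. A match describes letters in a window and is not a measured binding site.

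Both libraries were of like depth. Suffix 3 held 62656310 UMIs in its macrophages and suffix 4 held 67123933, at medians of 13954.5 and 12896 UMIs per cell. Mitochondrial transcripts made up 4.38 and 4.22% of UMIs and ribosomal protein transcripts 20.7 and 20.9%. The macrophages of suffixes 1 and 2, used below only to place a level, were 1531 and 4211 cells with 13205915 and 55257376 UMIs, at medians of 8225 and 12506 UMIs. Suffix 1 is the weaker reference: 1936 of its 6254 barcodes were over the mitochondrial limit. The rule was met by 24.5% of its barcodes, against 62.2, 66.8 and 68.1% in suffixes 2 to 4. Suffixes 3 and 4 shared 12 barcode sequences, 3 of them macrophages on both sides, and other pairs of suffixes shared 6 to 9. Defining markers of other cells were scarce in suffixes 3 and 4: the B cell list summed to 15.8 and 12.9 UMIs per 1000000 (CPM), the dendritic cell list to 8.38 and 10.6 CPM, and the T and NK cell, mast cell, mesothelial, erythroid and eosinophil lists to at most 5.99 CPM. The neutrophil list stood at 132 and 108 CPM. Cd79a, Cd3d, Cd3e and Cd3g are on the B and T cell lists and were set to 0 by the rule, so low sums there were partly fixed in advance. In suffix 1 the B cell list summed to 251.9 CPM and the mast cell list to 63.3 CPM.

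The macrophage label was checked on Gata6, Timd4 and Lyz2, which the rule did not use. Adgre1, the F4/80 gene, was required by the rule, so its 796.2, 559.7, 982.2 and 887.2 CPM in suffixes 1 to 4 are no check. Gata6 stood at 55.1, 64.4, 128.3 and 134.2 CPM, and Timd4 at 63.8, 84.0, 251.0 and 320.9 CPM. Suffixes 3 and 4 were thus the higher pair for all 3 genes, and between them Adgre1 differed by a log2 ratio of -0.15, Gata6 by 0.06 and Timd4 by 0.35 (suffix 4 over suffix 3). Cells at the edge of the rule were few: 96 and 106 barcodes with 1 Adgre1 UMI fell outside in suffixes 3 and 4, and 114 and 162 with 2 UMIs fell inside. Just outside, Lyz2, the lysozyme gene of myeloid cells, was at 37847 and 43716 CPM, and just inside at 45977 and 47319 CPM.

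After each cell was thinned to 3000 UMIs, which left out 24 and 29 shallower cells, Timd4 was detected in 40.6% (39.1 to 42.0%) of suffix 3 cells and in 47.0% (45.6 to 48.4%) of suffix 4 cells. Unthinned, the shares were 63.5 and 66.9%. Cells with Gata6 but no Timd4 made up 17.0 and 15.5% of thinned cells, and cells with neither made up 42.5 and 37.4%. In suffixes 1 and 2 the thinned Timd4 share was 11.7 and 12.0%, so the pair compared here stood apart from the others in resident markers. Suffix 1 also differed from the rest in cell quality and in sex-linked genes, and their part in its levels was not tested.

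Across the transcriptome the macrophages of both suffixes lay close together, with a few genes far apart. Genes at 20 CPM or more in either library were compared by the size of their ratio, which is what tested means below. Of these 5041 genes, 5 were at least 2-fold higher in suffix 4, which is 0.0992% of the genes, and 20 were at least 2-fold lower, which is 0.397%. At 1.5-fold, 25 were higher (0.496%) and 77 lower (1.53%), and at 4-fold 1 was higher (0.0198%) and 4 lower (0.0793%). The median log2 ratio of all these genes was -0.06, the 5th to 95th percentile ran from -0.36 to 0.20, and 98.0% of genes lay within 1.5-fold. Below 0 lay 3479 of the genes and above it 1562. Apoe alone made up 2.98% of suffix 4 UMIs against 0.0737% in suffix 3, which lowers every other gene of suffix 4 slightly. With Apoe left out of both totals the split was 7 higher and 15 lower, and with edgeR's TMM factors 7 higher and 14 lower. The closest genes outside the 2-fold line were Cd74, Lcn2 and Cdkn2b above (0.99, 0.96 and 0.88) and H2ac8, Ms4a6c and Epha2 below (each -0.96). Just inside it were H2-Ab1 at 1.05, Il15ra at -1.001 and S100a8 at -1.0.

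**Figure D1:**
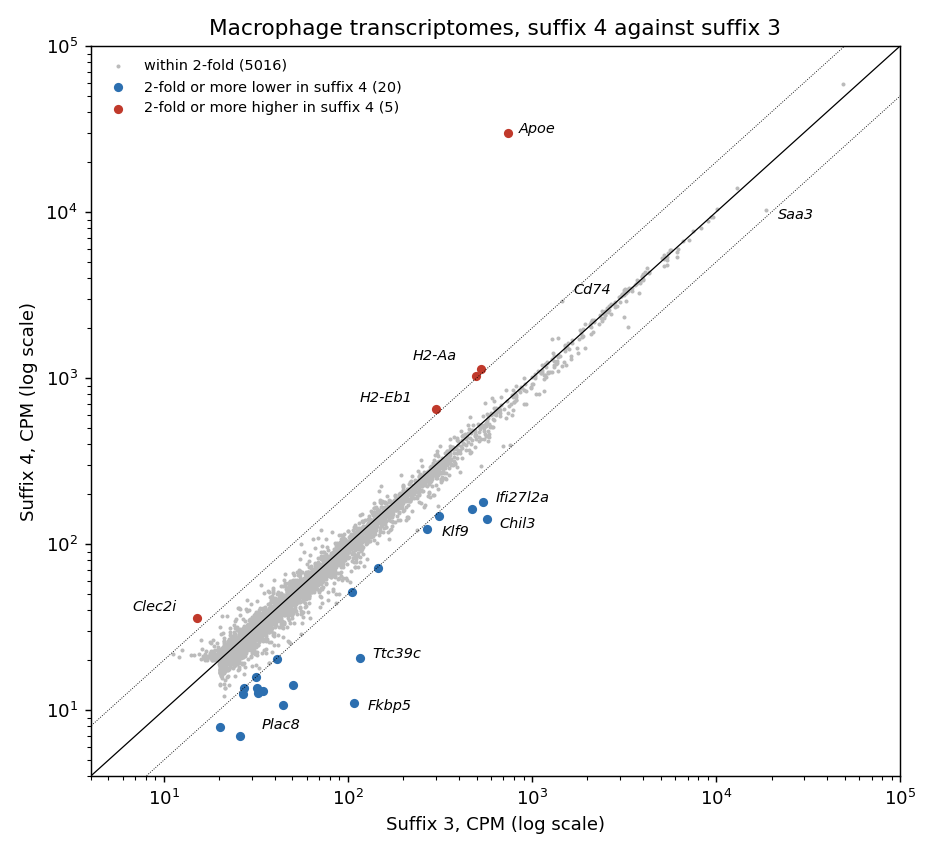
UMIs per 1000000 (CPM) in macrophages of suffix 3 (x axis) and suffix 4 (y axis), both on log scales, for the 5041 genes tested. The solid line marks equal levels and the dotted lines a 2-fold difference; the 5 genes higher in suffix 4 are red, the 20 lower are blue, and Apoe lies far above the others.

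Apoe set the pair apart, and it was used to choose it. The gene occupies chr7:19696109-19699188, minus strand, in GENCODE M21 on GRCm38. Its level was 29.8, 862.9, 736.5 and 29802 CPM in suffixes 1 to 4, from 46149 UMIs in suffix 3 and 2000441 in suffix 4. Suffix 4 was the highest by far, suffixes 2 and 3 were close to each other, and suffix 1 was the lowest. The ratio of suffix 4 to suffix 3 was 40.5-fold (log2 5.34, 5.33 to 5.35). The 3 Apoe-/- groups carry a loss of Apoe whose extent the labels do not give, and the library counts only the 3' ends of transcripts, so a low level cannot check a genotype.

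The Apoe difference was spread over most of the cells. At 3000 UMIs the median cell had 0, 2, 2 and 81 Apoe UMIs in suffixes 1 to 4. In suffix 4 the 5th to 95th percentile ran from 19.5 to 220 UMIs, and in suffix 3 from 0 to 7 UMIs. No Apoe UMI was found in 23.8% of suffix 3 cells and in 0.0201% of suffix 4 cells, which is 1 cell. The 1st percentile of suffix 4 was 8 UMIs. Its cells with 4 Apoe UMIs or fewer held from 1 to 258 UMIs of H2-Aa, H2-Ab1, H2-Eb1 and Cd74, which are MHC class II genes. Lymphocytes of suffix 4 held Apoe too (1190 and 1104 CPM, described below), so the near absence of cells at 0 does not show that every cell was higher. The log2 ratio was 5.34 in Timd4-positive cells, 5.37 in Gata6-positive Timd4-negative cells and 5.38 in cells with neither marker, so it was as large in each subset.

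**Figure D2:**
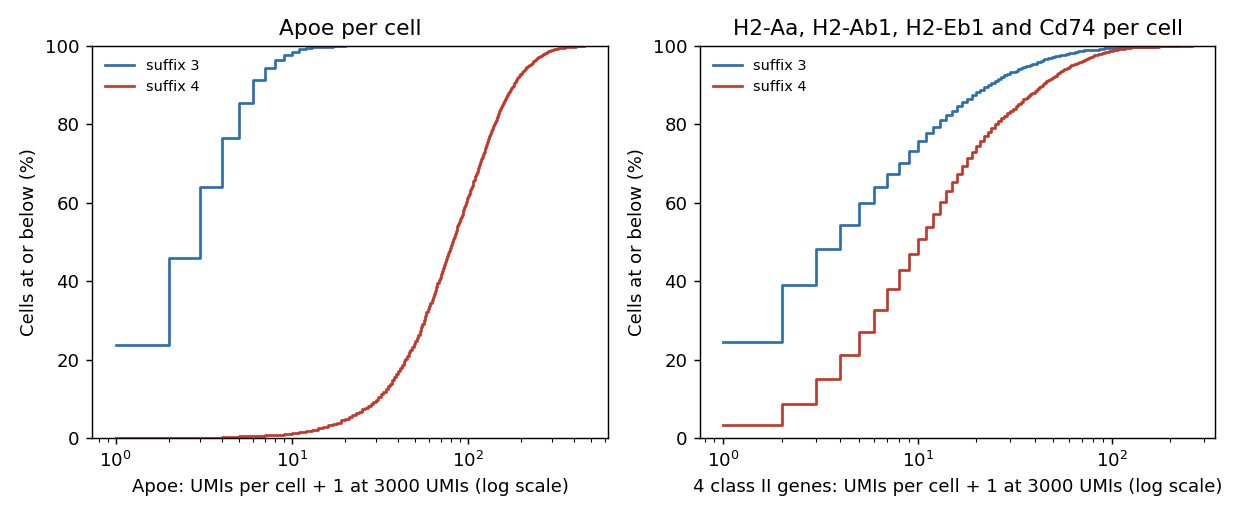
Cumulative share of cells (y axis, %) at or below a number of UMIs (x axis, log scale, 1 added) after thinning to 3000 UMIs per cell, for suffix 3 in blue and suffix 4 in red. The Apoe curves hardly overlap, with medians of 2 and 81 UMIs, while the class II curves overlap, with medians of 3 and 9 UMIs.

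Genes beside Apoe did not share its difference. Of the 22 other genes tested within 5 Mb, none passed 1.5-fold, as 98.0% of all genes tested did not. Their log2 ratios ran from -0.36 to 0.27 with a median of -0.10, against a 5th to 95th percentile of -0.36 to 0.20 for all genes tested. Tomm40, a mitochondrial import channel and the nearest gene tested, was at -0.09, Apoc4 at -0.28, Bcam at -0.01 and Clptm1 at -0.12. Apoc1 and Apoc2, apolipoproteins of the same cluster, were at 18.6 and 16.0 CPM and at 5.91 and 6.81 CPM in suffixes 3 and 4, under the minimum for testing.

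Apoe was also counted in cells outside the macrophage rule. The pair was chosen on its Apoe UMIs, so a difference there is no independent check. Cells with at least 2 Cd79a UMIs and neither Adgre1 nor Cd3 (301 and 269 cells in suffixes 3 and 4, medians of 4762 and 6312 UMIs) held 74.7 and 1190 CPM of Apoe. Cells with at least 2 Cd3 UMIs (151 and 130 cells, medians of 4071 and 5037.5 UMIs) held 18.2 and 1104 CPM. The log2 ratio was 3.99 (3.74 to 4.26) in the first and 5.87 (5.11 to 6.88) in the second. These lymphocyte levels were low against those of macrophages: in suffix 4 they were 3.99 and 3.70% of the macrophage level, and for Lyz2, a gene that lymphocytes lack, they were 2.34 and 2.43%. In suffix 3 the Apoe levels were 10.1 and 2.47% of the macrophage level and those of Lyz2 2.98 and 3.02%. What part of the lymphocyte Apoe was free RNA was not tested.

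None of the tested lipid genes in the next 4 lists passed 1.5-fold, as 98.0% of all genes tested did not. The 14 tested genes of cholesterol efflux and of LXR, the sterol-sensing nuclear receptor that induces Apoe, had a median of -0.03. Abca1 and Abcg1, the cholesterol exporters, stood at 117.7 and 98.5 CPM and at 46.4 and 31.7 CPM in suffixes 3 and 4, log2 ratios of -0.26 and -0.55. Lpl, the lipoprotein lipase, stood at 314.4 and 389.2 CPM (0.31). The 13 lipid-associated macrophage genes had a lower median, -0.30 against -0.06 for all genes, whose 5th percentile was -0.36, and among them were Trem2, a lipid-sensing receptor (-0.38), and Cd63 (-0.52). The fatty acid transporter Cd36 was at 0.26. The 9 scavenger receptors tested had a median of -0.04, and the 4 sterol and fatty acid synthesis genes a median of -0.03.

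MHC class II genes were the group higher in suffix 4. H2-Aa, H2-Ab1 and H2-Eb1 encode the chains of the class II molecule and Cd74 the invariant chain that guides it. H2-Aa stood at 1554, 2964, 527.5 and 1134 CPM in suffixes 1 to 4. H2-Ab1 stood at 1373, 2478, 498.3 and 1033 CPM. H2-Eb1 stood at 864.2, 1439, 300.7 and 646.7 CPM. In all 3 genes suffix 2 was the highest and suffix 3 the lowest, so suffix 4 lay above suffix 3 and below the other libraries. The log2 ratios of suffix 4 to suffix 3 were 1.10 (1.09 to 1.12) for H2-Aa, 1.05 (1.03 to 1.07) for H2-Ab1 and 1.10 (1.08 to 1.13) for H2-Eb1. Cd74 was just under the line at 0.99 (0.98 to 1.00), with 3603, 6732, 1464 and 2905 CPM in the same order.

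The rest of the class II list differed less. Of its 7 tested members, 3 were 2-fold higher, 4 were 1.5-fold higher and none was lower by either measure, and the median was 0.99 against -0.06 for all genes tested. Among all genes tested, 0.0992% were 2-fold higher and 0.496% were 1.5-fold higher. H2-DMa and H2-DMb1, which load peptides, were at 0.55 and 0.51. Ctss, the protease that trims the invariant chain, was at -0.04. Ciita, under the minimum with 4.68 and 10.8 CPM, had a log2 ratio of 1.21 (1.02 to 1.41). The 3 chain genes and Cd74 were higher in suffix 4 in each macrophage subset, and H2-Aa was at 0.94 in Timd4-positive cells, 1.41 in Gata6-positive Timd4-negative cells and 1.23 in cells with neither.

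Class II was unevenly spread over cells. At 3000 UMIs the median cell held 3 UMIs of the 4 genes in suffix 3 and 9 in suffix 4. Cells with at least 30 of 3000 UMIs, a range and not a cell type, were 6.69% (5.96 to 7.48%) of suffix 3 and 16.7% (15.6 to 17.7%) of suffix 4, and they carried 44.2 and 55.4% of the class II UMIs. The shares were 18.5 and 60.6% in suffixes 1 and 2. Within 10 UMIs of this limit lay 325 and 729 cells, so the shares depend on where it is set. In unthinned cells under 1% class II UMIs, H2-Aa still had a log2 ratio of 0.91 (0.89 to 0.94), and in cells at or above 1% it had 0.10 (0.08 to 0.13). This split uses the class II level itself.

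In cells that the rule left out, class II behaved differently. In Cd79a cells H2-Aa was at 3484 and 3503 CPM (log2 0.01, -0.04 to 0.06) and H2-Eb1 at -0.13 (-0.19 to -0.07). In Cd3 cells H2-Aa stood at 189.2 and 32.3 CPM, lower in suffix 4 by a log2 ratio of -2.52 (-3.26 to -1.90). Cd209a, a dendritic cell marker, had 15 and 1 UMIs in the Cd3 cells of suffixes 3 and 4, a log2 ratio of -3.48 (-9.41 to -1.31), and 14 and 126 UMIs in macrophages with neither Gata6 nor Timd4, a log2 ratio of 3.13 (2.37 to 4.08). The other 6 dendritic cell markers had at most 12 UMIs in those macrophages. The part of such cells in the class II values was not tested.

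Clec2i, a C-type lectin-like gene, was the remaining gene 2-fold higher in suffix 4. It stood at 61.9, 30.2, 15.1 and 35.8 CPM in suffixes 1 to 4, a log2 ratio of 1.24 (1.13 to 1.35) with suffix 3 again the lowest. It was at 1.27, 1.12 and 1.44 in the 3 subsets. In Cd79a cells it was at 0.02 (-0.34 to 0.37).

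**Figure D3:**
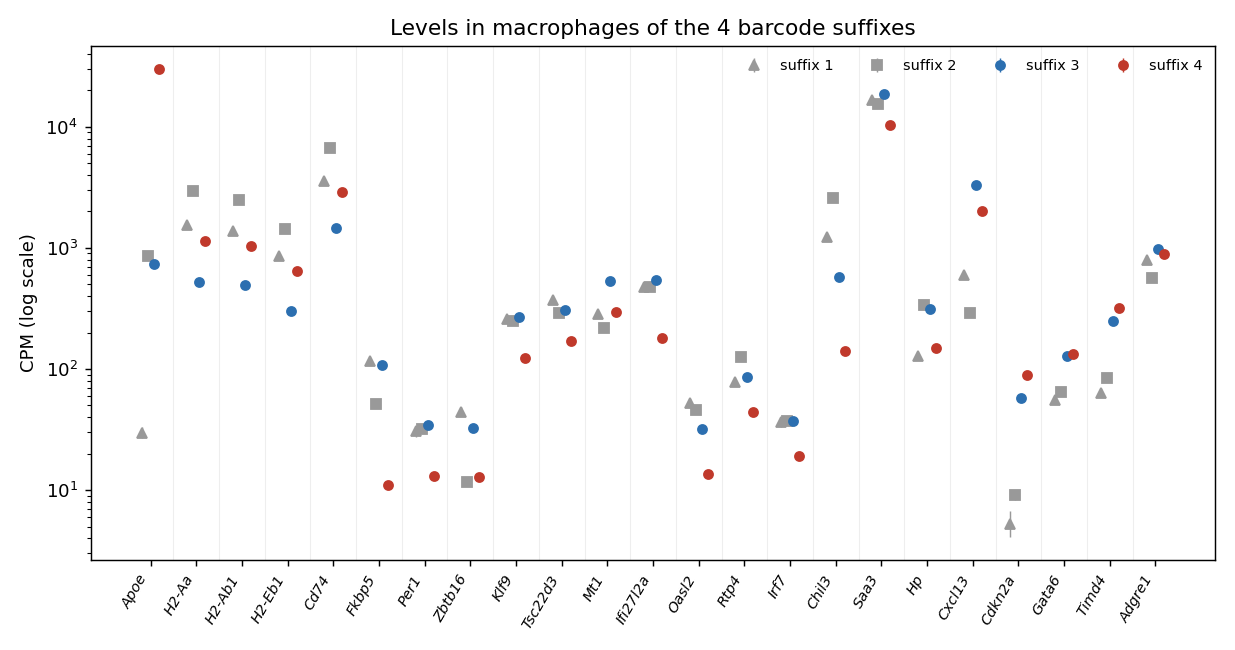
UMIs per 1000000 (CPM; y axis, log scale) in macrophages of the 4 suffixes for 23 genes, with 95% Poisson intervals that are mostly smaller than the symbols. Suffix 3 is blue, suffix 4 red, and suffixes 1 and 2 are grey; suffix 4 lies below the other libraries for genes such as Fkbp5, Klf9 and Ifi27l2a, and suffix 3 lies below them for the class II genes.

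Glucocorticoid targets were the group lower in suffix 4. Fkbp5, a co-chaperone of the glucocorticoid receptor, occupies chr17:28399094-28517527, minus strand. It stood at 117.1, 51.8, 108.6 and 11.01 CPM in suffixes 1 to 4, and suffix 4 was below each of the others. The log2 ratio was -3.30 (-3.41 to -3.19), a 9.86-fold lower level, and it had the lowest ratio of all genes tested. At 3000 UMIs, Fkbp5 was detected in 27.5% (26.2 to 28.9%) of suffix 3 cells and in 2.82% (2.37 to 3.31%) of suffix 4 cells. In the 3 subsets the ratio was -3.22, -3.38 and -3.75.

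Per1, a clock gene, stood at 30.5, 31.8, 34.7 and 13.04 CPM, with a log2 ratio of -1.41 (-1.53 to -1.30). Klf9, a zinc-finger repressor, stood at 257.5, 250.2, 267.8 and 123.0 CPM, with a log2 ratio of -1.12 (-1.16 to -1.09). In both genes the 3 other libraries were close together and suffix 4 stood alone below them. Zbtb16, a transcription factor, stood at 44.5, 11.7, 32.3 and 12.7 CPM (-1.34, -1.46 to -1.23), so there suffix 2 was as low as suffix 4.

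Of the 8 list members tested, 4 were 2-fold lower (Fkbp5, Per1, Zbtb16 and Klf9), 6 were 1.5-fold lower and none was 1.5-fold higher. Among all genes tested, 0.397% were 2-fold lower and 1.53% were 1.5-fold lower. The median log2 ratio of the 8 members was -0.998 against -0.06 for all genes. Tsc22d3, which encodes the anti-inflammatory leucine zipper GILZ, was at -0.87 and stood at 369.8, 290.3, 309.9 and 169.3 CPM. Mt1 was at -0.84, with 285.5, 218.1, 530.2 and 296.6 CPM, so suffix 3 was the highest and suffix 4 was near suffix 1. Sgk1, a kinase, was at -0.35, and Dusp1, a phosphatase of MAP kinases, at 0.20. Mt2, under the minimum with 9.70 and 2.58 CPM, had a log2 ratio of -1.91 (-2.16 to -1.67).

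The lymphocytes of the same libraries, which the rule did not use, were also lower in several of these genes. Fkbp5 was at 66.6 and 16.3 CPM in Cd79a cells (-2.01, -2.66 to -1.44) and at 66.6 and 32.3 CPM in Cd3 cells (-1.03, -1.84 to -0.28). Tsc22d3 was at -0.45 (-0.58 to -0.33) and -0.61 (-0.93 to -0.29). Of the list members at 20 CPM in those cells, 3 of 4 in Cd79a cells and 4 of 6 in Cd3 cells were lower beyond counting error, and none was higher. Of all genes at 20 CPM there, 7.92% in Cd79a cells and 6.93% in Cd3 cells were lower beyond counting error, and 5.69 and 4.96% were higher. What part of the lymphocyte Fkbp5 was free RNA was not tested.

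**Figure D4:**
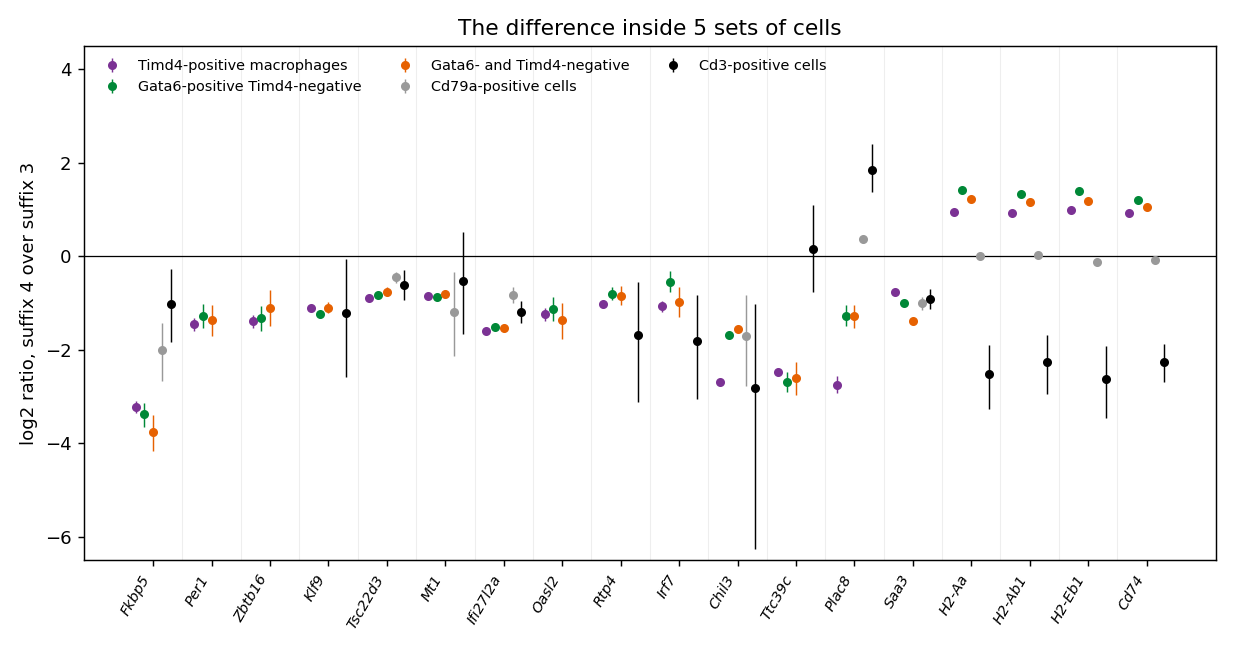
log2 ratio of suffix 4 to suffix 3 (y axis) for 18 genes in 3 macrophage subsets, in Cd79a-positive cells and in Cd3-positive cells; bars are 95% intervals for counting error, and a point is drawn where either library has at least 20 CPM. Fkbp5 lies below 0 in all 5 sets, and the class II genes lie above 0 in macrophages, near 0 in Cd79a cells and below 0 in Cd3 cells.

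Type I interferon response genes were lower in suffix 4 to a smaller degree. Ifi27l2a stood at 479.2, 472.6, 539.3 and 179.5 CPM in suffixes 1 to 4, a log2 ratio of -1.59 (-1.62 to -1.56). Oasl2, of the oligoadenylate synthetase family, stood at 52.0, 45.5, 31.9 and 13.6 CPM (-1.23, -1.34 to -1.12). In both, suffix 4 was the lowest of the 4 libraries. Irf7, the factor that amplifies interferon production, was at -0.96 with 36.3, 37.3, 37.1 and 19.1 CPM, and Rtp4 was at -0.95.

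Of the 9 members tested, 2 were 2-fold lower, 5 were 1.5-fold lower and none was higher by either measure, at a median of -0.66. Among all genes tested, 0.397% were 2-fold lower and 1.53% were 1.5-fold lower, at a median of -0.06. Xaf1 was at -0.66, Bst2, which tethers virions, at -0.56, Ifi209 at -0.53 and Ifi204 at -0.43. Ifi207, outside the list and of the same family as Ifi204, was at -1.04 (105.4 and 51.2 CPM). In lymphocytes Ifi27l2a was at -0.84 (-1.01 to -0.67) in Cd79a cells and at -1.19 (-1.43 to -0.95) in Cd3 cells. Interferon-gamma GTPases did not form such a group: 1 of 9, Zbp1 at -0.78, was 1.5-fold lower, and the median was -0.08.

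**Figure D5:**
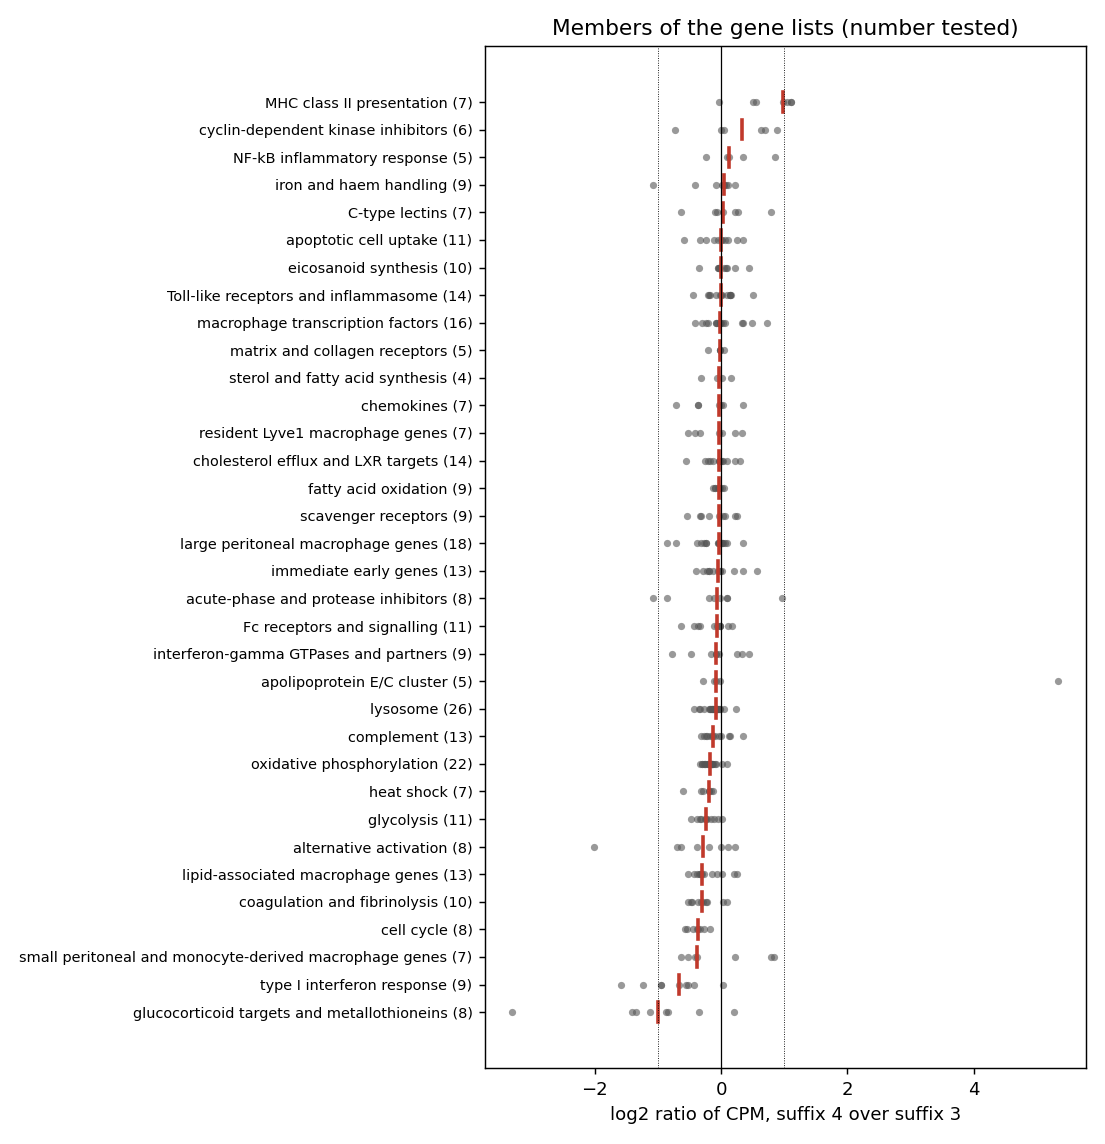
log2 ratio of suffix 4 to suffix 3 (x axis) for each tested member (points) of the gene lists with at least 4 tested members (rows, number tested in brackets), with the median in red; dotted lines mark 2-fold. The class II list has the highest median, 0.99, and the glucocorticoid list the lowest, -0.998.

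The other genes 2-fold lower had varied roles. Chil3, the chitinase-like protein Ym1 of alternatively activated macrophages, stood at 1225, 2581, 571.3 and 141.6 CPM in suffixes 1 to 4, a log2 ratio of -2.01 (-2.05 to -1.98). Suffix 4 was the lowest and suffix 2 the highest. Chil3 has a close paralog, Chil4, so its counts are uncertain where reads match both. Chil3 was detected in 29.1% of thinned suffix 3 cells and in 12.4% of suffix 4 cells, and its ratio was -2.69 in Timd4-positive cells against -1.69 and -1.55 in the other subsets. It was -3.43 in cells under 1% class II UMIs and -1.82 in cells at or above. Of the 8 tested members of the alternative activation list, Chil3 was 2-fold lower, 3 were 1.5-fold lower (Chil3, Il4ra at -0.69 and Clec10a at -0.63) and none was 1.5-fold higher. Among all genes tested, 0.397% were 2-fold lower and 1.53% were 1.5-fold lower. The median of the list was -0.28, with Arg1, the arginase gene, at -0.19, Retnla at -0.37 and Mrc1, the mannose receptor gene, at 0.22.

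Ttc39c, a tetratricopeptide repeat gene, stood at 21.6, 19.4, 116.0 and 20.5 CPM, so suffix 3 alone was high and suffix 4 matched the others. Its log2 ratio was -2.50 (-2.58 to -2.41). Plac8 stood at 36.9, 207.0, 44.6 and 10.7 CPM (-2.06, -2.18 to -1.94), and its ratio was -2.75 in Timd4-positive cells against -1.27 and -1.28 in the other subsets. The replication-dependent histone gene Hist1h2ap stood at 4.54, 30.9, 50.4 and 14.1 CPM (-1.84, -1.94 to -1.73). Histone genes have near-identical copies, so their counts are uncertain. The 8 cell cycle genes tested were all below 0, as were 3479 of the 5041 genes tested. Their median was -0.37 and none of the 8 passed 1.5-fold. Mki67, a proliferation marker, was at -0.33.

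Lrg1, a leucine-rich glycoprotein outside the lists, stood at 341.5, 232.1, 471.3 and 163.2 CPM (-1.53, -1.56 to -1.50). Of the 8 tested genes of acute-phase proteins and protease inhibitors, 1 was 2-fold lower, 2 were 1.5-fold lower and 1 was 1.5-fold higher, and the median was -0.07 against -0.06 for all genes tested. The shares over all genes tested were 0.397, 1.53 and 0.496% in the same order. Hp, the gene of the haemoglobin-binding haptoglobin, was the 1 past 2-fold and stood at 127.4, 337.9, 314.2 and 148.6 CPM (-1.08, -1.12 to -1.05). Saa3, serum amyloid A3, stood at 16665, 15344, 18595 and 10276 CPM (-0.86), with suffix 4 again the lowest. Slpi, a protease inhibitor, was at 0.09, and Lcn2, the iron-scavenger lipocalin, was higher at 0.96 from 11.2 and 21.7 CPM.

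Jdp2, a repressor of AP-1 sites, was at -1.34 (20.1 and 7.93 CPM), Pfkfb3, a regulator of glycolysis, at -1.12 (27.0 and 12.5 CPM), Rnf169, a DNA-repair ubiquitin ligase, at -1.03 and Il15ra, a cytokine receptor chain, at -1.001. S100a8, a calcium-binding protein of neutrophils, was also at -1.0, with 7.42, 30.2, 31.8 and 15.9 CPM. In suffix 3, 46.1% of the S100a8 UMIs came from 10 cells, and without the cells that held an S100a9 UMI the ratio was -0.15, which ends the 2-fold call. The remaining 2 of the 20 genes, AC168977.1 and C130026I21Rik, have no symbol of their own. Suffix 4 was below each of the 3 other libraries for 13 of the 20 lower genes, and suffix 3 was above each of them for 9. Of the 5 higher genes, suffix 4 was above all others for 1, Apoe, and suffix 3 was below all others for 4. These genes were chosen by their ratio of suffix 4 to suffix 3, which by itself favours such positions. The share over all genes was not counted, so the positions do not show which library is the outlying one.

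Of 18 large peritoneal macrophage genes tested, none was 2-fold apart and 2 were 1.5-fold lower, against 1.53% of all genes tested. They were Saa3 and Cxcl13, the chemokine that attracts B cells, which stood at 592.5, 289.1, 3322 and 2019 CPM (-0.72). In Timd4-positive cells, in Gata6-positive Timd4-negative cells and in cells with neither, Saa3 was at -0.76, -0.99 and -1.38 and Cxcl13 at -0.66, -1.16 and -1.05. The median of the 18 genes was -0.04. Fn1, the fibronectin gene, was at -0.02, Prg4, the lubricin gene, at -0.04, and Alox15, a lipoxygenase, at -0.04. Lyve1, the hyaluronan receptor gene in the series title, stood at 447.7, 14.3, 18.9 and 18.3 CPM, at -0.04 (-0.16 to 0.07) between suffixes 4 and 3. The collagen VI genes Col6a1, Col6a2 and Col6a3 had at most 0.0149 CPM in suffix 4 and 0.016 CPM in suffix 3, below the 0.0447 and 0.0479 CPM that 3 counts would give.

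Genes of the monocyte-derived macrophages were mixed. Ccr2, the receptor that brings monocytes in, stood at 185.3, 118.8, 20.6 and 37.0 CPM (0.85, 0.75 to 0.94), and its ratio was 0.11 in Timd4-positive cells, 2.05 in Gata6-positive Timd4-negative cells and 0.63 in cells with neither. It was 0.13 (-0.06 to 0.32) in cells under 1% class II UMIs and -0.20 (-0.32 to -0.08) in cells at or above, and the latter were 279 and 805 cells. Clec4a2 was at 0.79 and Clec10a, a galactose-binding lectin, at -0.63. Of 7 tested, 2 were 1.5-fold higher and 1 was 1.5-fold lower, against 0.496 and 1.53% of all genes tested. Irf8, a factor of monocytes and dendritic cells, stood at 201.6, 104.2, 64.96 and 107.6 CPM (0.73).

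Cyclin-dependent kinase inhibitors went both ways. Cdkn2a, which encodes p16 and Arf, stood at 5.30, 9.10, 57.5 and 89.5 CPM in suffixes 1 to 4 (0.64, 0.58 to 0.70), so suffixes 3 and 4 were both far above the others. In suffixes 3 and 4 it was at 79.2 and 119.8 CPM in Timd4-positive cells. It was at 19.4 and 24.6 CPM in Gata6-positive Timd4-negative cells and at 8.62 and 14.8 CPM in cells with neither. Timd4-positive cells were 40.6 and 47.0% of thinned cells there, against 11.7 and 12.0% in suffixes 1 and 2. The part of this mix in the Cdkn2a levels was not tested. The neighbouring gene Cdkn2b was at 0.88 and Cdkn2c at 0.69, while Cdkn1a, the p21 gene induced by p53, was lower at -0.73 with 122.3 and 73.7 CPM. Of 6 tested, 3 were 1.5-fold higher and 1 was 1.5-fold lower, none by 2-fold. The 1.5-fold shares over all genes tested were 0.496% higher and 1.53% lower.

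Among 5 tested NF-kB response genes, Cxcl2, a neutrophil chemokine, was the 1 past 1.5-fold (55.4 and 100.6 CPM, 0.86). None of 13 complement genes, 14 Toll-like receptor and inflammasome genes, 22 oxidative phosphorylation genes, 11 glycolysis genes, 26 lysosome genes or 9 fatty acid oxidation genes passed 1.5-fold, and their medians were -0.13, 0.01, -0.17, -0.24, -0.09 and -0.04. Those of oxidative phosphorylation and glycolysis were below the 25th percentile of all genes tested, -0.15. Of 11 Fc receptor and signalling genes, Fcgr4, which binds IgG, was 1.5-fold lower at -0.63. Heat shock genes were below 0 in all 7 cases, as were 3479 of the 5041 genes tested, and Dnaja1 was 1.5-fold lower at -0.60. The 1.5-fold shares over all genes tested were 0.496% higher and 1.53% lower.

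All 25 genes past 2-fold had the same sign in Timd4-positive cells, in Gata6-positive Timd4-negative cells and in cells with neither marker, but for S100a8 this rests on the first subset. Its log2 ratio was -1.46 (-1.59 to -1.32) there, and -0.05 (-0.28 to 0.18) and -0.19 (-0.51 to 0.12) in the others, intervals that span 0. The 2-fold limit was passed in the same direction by 22, 19 and 21 of the 25 genes. The subsets are parts of the same cells and libraries that gave the 25 genes, so their agreement is no independent check. When the subsets of suffix 4 were weighted to the shares of suffix 3, 6 genes were higher and 18 lower by 2-fold, among them the 5 and 18 of the first comparison.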

How the data were processed

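Viable F4/80-positive peritoneal cells were profiled with a 10x Genomics 3' kit (version 3), per the labels' protocols. The deposited values are whole UMI counts in 1 matrix of 31253 genes by 26811 barcodes. Per the file headers, Cell Ranger 5.0.1 wrote it. CASAVA 1.8, Cell Ranger, Seurat and mm10 are named in the submitters' processing notes, without roles. The sources used here do not say whether introns were counted or free RNA or doublets removed. No group entered a comparison, since no source ties a suffix to a sample.

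Counts were summed over macrophages of each suffix and scaled to CPM. Genes with at least 20 CPM in the higher library were tested by size: log2 ratios had a prior count of 0.5, and 2-fold was the limit. Of 5041 genes, 5037 matched GENCODE M21 by identifier. Promoters came from RefSeq (GRCm38.p6), upstream 250 bases only. No doublet caller was run; cells with Cd79a or Cd3 UMIs were left out, and cells over 30000 UMIs were left out as an alternative. Python 3.11.15, numpy 2.4.6, scipy 1.17.1, pandas 2.3.3 and matplotlib 3.10.9 were used, with edgeR 4.0.16 and DESeq2 1.42.0 in R 4.3.3 for scaling factors only.

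The macrophage rule and all gene lists were chosen with earlier results of these data known, and the motifs after the differences were seen. Named genes are Adgre1, Gata6, Timd4, Apoe, Lyve1, the Col6a genes, up to 20 genes past 2-fold on each side that have a symbol of their own, list members past 2-fold, the 3 list members with most UMIs and sex-linked genes; other list members, genes near the line, Apoe's neighbours, S100a9, Ciita and Mt2 were named after their values were seen. On simulated counts with 200 changed genes, the 2-fold limit called all 67 tested genes changed 3-fold, all 65 tested genes changed 4-fold, 0 of 66 changed 1.5-fold and 0 of 4723 unchanged genes. The simulation held counting noise only, with no variation between libraries, mice or cells. It checks the calculation and gives no error rate for a pair of libraries without replicates.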

Additional observations from a re-analysis of the deposited data

Results flagged for a closer look

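Genes whose ratio of suffix 4 to suffix 3 pointed one way in macrophages and the opposite way in Cd3-positive cells of the same libraries stood out. The difference between the cell sets was not tested, since each set has 1 library a side. For Plac8 the log2 ratio in macrophages minus that in Cd3-positive cells, which was 1.85, came to -4.60 in Timd4-positive cells, -3.12 in Gata6-positive Timd4-negative cells and -3.14 in cells with neither marker. For the class II genes the macrophage ratio was the higher one. In Gata6-positive Timd4-negative cells the difference on the log2 scale was 3.93 for H2-Aa, 3.61 for H2-Ab1, 4.01 for H2-Eb1 and 3.46 for Cd74. In cells with neither marker it was 3.75 for H2-Aa, 3.43 for H2-Ab1, 3.79 for H2-Eb1 and 3.31 for Cd74. The Cd3-positive cells were few, 151 and 130, and held 15 and 1 UMIs of the dendritic cell marker Cd209a, against 14 and 126 UMIs in macrophages with neither marker. Its part in the class II values was not tested.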

How the results depend on the processing

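Because the pair was chosen on its Apoe UMIs, the steadiness of the Apoe ratio was fixed in advance and is no check. Apoe's log2 ratio kept its direction under every alternative run, from 5.28 to 5.40. It was 5.38 with Apoe left out of both totals, 5.39 with edgeR's TMM factors, 5.40 with DESeq2's size factors and 5.40 centred on the median of all genes. It was 5.37 as the mean of each cell's CPM, 5.38 thinned to 3000 UMIs, 5.35 without cells over 30000 UMIs, 5.37 in Gata6-positive Timd4-negative cells, 5.38 in cells with neither marker, 5.35 with subsets weighted and 5.28 in cells under 1% class II UMIs. The counts of genes higher and lower were 1457 and 1545 with no CPM minimum, 12 and 51 at 5 CPM, 4 and 10 at 50 CPM, 25 and 77 at 1.5-fold and 1 and 4 at 4-fold. The count higher was 3 with Adgre1 at 1 UMI, 3 in Timd4-positive cells, 9 in Gata6-positive Timd4-negative cells and 9 in cells with neither marker. The median of all genes ran from -0.10 to 0. Of 22 named genes past 2-fold besides Apoe, all kept their sign under the 20 alternatives that apply to single genes and 13 stayed past 2-fold in each. Weighted subsets, the class II limit, shared barcodes and cells with an S100a9 UMI were chosen after seeing the data. No paired analysis was possible because each side is 1 library. Low counts limit the lymphocyte sets most.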

Other observations

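S100a9, the partner of S100a8 in calprotectin and a neutrophil marker, was singled out after its values were seen. It had 0, 197, 1095 and 0 UMIs in macrophages of suffixes 1 to 4, which is 0, 3.57, 17.5 and 0 CPM. Its UMIs were in 42 macrophages of suffix 3, and 10 of them held 97.1% of the UMIs. Over all barcodes, whether or not they passed the rule, S100a9 had 31, 4397, 3002 and 39 UMIs in suffixes 1 to 4. S100a8 had 1991 UMIs in 849 macrophages of suffix 3, where 10 cells held 46.1% of them, and 1066 UMIs in 833 macrophages of suffix 4, where 10 cells held 4.503%. No macrophage of suffix 4 held an S100a9 UMI.

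Ddx3y, on the Y chromosome, stood at 0, 66.0, 58.5 and 55.4 CPM in macrophages of suffixes 1 to 4, and Xist, which silences the inactive X chromosome, at 572.8, 0.0181, 0 and 0.0447 CPM, so suffixes 3 and 4 matched each other in both. Suffix 1, with Xist and no Ddx3y, was unlike the rest in both. Where suffix 1 was used to place a level, the part of sex was not tested.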
